A study of Mus musculus with 46 samples.

Results

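Gene expression in the liver remnant of old mice was compared with that of young mice 2 h after partial hepatectomy (PH), the surgical removal of 70% of the liver. The comparison takes the 3 arrays titled as old and the 3 titled as young at this time, 6 of the 46 arrays in the series, and covers every probe set that is not a control probe set. All mice were males of the CB6F1 hybrid strain, with no allele or agent named beyond the anaesthetics avertin and isoflurane. The old mice were 25 to 27 months of age and came from the National Institute on Aging, and the young mice were 5 to 6 months of age and came from Jackson Laboratories, so age and supplier cannot be told apart. The other groups used were unoperated liver (0 h), liver 0.5, 1 and 4 h after PH, each with 3 arrays per age, and liver 2 h after sham surgery, with 2 arrays per age. Nothing in the labels ties each replicate to a mouse of its own, and the p-values then reflect only the spread among arrays, which may be technical.

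After PH the remaining liver cells leave the resting state and divide until the lost mass is replaced. In the first hours cytokines and growth factors switch on immediate early genes such as Fos and Jun, and hepatocytes keep up blood glucose, bile acid handling and the secretion of plasma proteins. Interferon-induced genes, which act in defence against viruses and in antigen presentation, respond to type I interferons through interferon-stimulated response elements and to interferon gamma through gamma-activated sites in their promoters. MHC class I molecules show peptides from inside the cell to T cells, and the immunoproteasome subunit Psmb8 shapes those peptides. Whole liver was assayed, so more or fewer cells of a type and more or less RNA per cell cannot be told apart in any value given here.

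Promoters of 6 genes from the list of interferon-induced genes are shown because this list held more genes past the threshold than any other of the 39 lists compared. Each stretch is the 110 bases before the gene's start on GRCm38.p6, from RefSeq, with capitals marking matches on either strand to the core of an interferon-stimulated response element (GAAA repeated after 2 bases of any kind) or to that of a gamma-activated site (TTCNNNGAA). The stretches lie at chr3:142559934-142560043 (plus strand) for Gbp3, chr17:34198085-34198194 (plus) for Psmb8, chr11:48871421-48871530 (minus) for Irgm1, chr11:58199446-58199555 (plus) for Igtp, chr3:142620553-142620662 (plus) for Gbp2 and chr19:34640779-34640888 (plus) for Ifit1.

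Gbp3: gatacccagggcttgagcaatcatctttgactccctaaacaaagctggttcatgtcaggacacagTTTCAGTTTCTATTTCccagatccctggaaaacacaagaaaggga

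Psmb8: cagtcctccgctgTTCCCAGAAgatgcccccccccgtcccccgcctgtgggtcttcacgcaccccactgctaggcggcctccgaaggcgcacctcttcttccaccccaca

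Irgm1: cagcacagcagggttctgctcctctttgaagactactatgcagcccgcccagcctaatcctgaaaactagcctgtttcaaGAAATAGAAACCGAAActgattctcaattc

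Igtp: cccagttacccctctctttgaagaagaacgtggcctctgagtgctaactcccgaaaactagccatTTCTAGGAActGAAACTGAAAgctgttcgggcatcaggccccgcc

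Gbp2: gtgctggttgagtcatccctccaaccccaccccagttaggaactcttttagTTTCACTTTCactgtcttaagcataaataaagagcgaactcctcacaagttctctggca

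Ifit1: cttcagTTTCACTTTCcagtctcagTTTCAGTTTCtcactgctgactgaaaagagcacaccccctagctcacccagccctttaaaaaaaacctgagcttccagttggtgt

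In Psmb8 the capitals are a TTCNNNGAA match. Igtp holds one match of each kind, and the capitals of the other 4 are matches to the repeated GAAA, 2 of them overlapping in Gbp3 and in Irgm1. Of the 26 measured interferon-induced genes, 19 had a promoter in the RefSeq table. Within 250 bases before the start, 8 of these 19 (42.1%) held a match to the repeated GAAA, against 223 of 6576 genes on the array with a promoter (3.39%) and 978 of all 32851 promoters (2.98%). A TTCNNNGAA match stood in 5 of the 19 (26.3%), against 486 of 6576 genes (7.39%) and 2306 of 32851 promoters (7.02%). The 6 genes were chosen after their values were seen, and a match is a run of letters, not a measured binding site. Of the 6, Gbp3 and Psmb8 were past the threshold between ages, and Irgm1, Igtp, Gbp2 and Ifit1 were not. Ifi27 and Ifi47, also past the threshold, are not among the genes found with a match of either kind and are not shown.

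The 6 arrays correlated between 0.985 and 0.995 over the tested probe sets, with 0.989 to 0.992 among the old, 0.992 to 0.995 among the young and 0.985 to 0.993 between ages. Old replicate 2 lay closer to the young arrays (0.990 to 0.993) than old replicate 1 (0.986) or old replicate 3 (0.985 to 0.989). The array medians ran from 6.25 to 6.28 on the log2 scale. The mean of 9 bacterial spike-in probe sets, which report the hybridisation, was 7.98, 8.52 and 7.94 in the old and 8.54, 8.05 and 9.05 in the young arrays, a difference of -0.40 (exact permutation p = 0.2, two-sided, where 0.1 is the smallest possible). Hepatocyte markers, among them Alb for albumin and Apoa1 for an apolipoprotein, lay between 7.63 and 14.03 on the log2 scale in all 6 arrays, and 0 of 9 passed the test between ages. Precision is limited by there being 3 arrays per age.

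In the old livers immunoglobulin, interferon-induced and antigen-presentation genes and the macrophage gene Mpeg1 were among those higher. The genes lower included the keratin Krt19 and the nuclear receptor Nr0b2. Of 12422 probe sets, 57 passed (0.459%, limma, Benjamini-Hochberg adjusted p under 0.05), 47 of them higher in old (0.378%) and 10 lower (0.0805%). They gave 32 named genes that were higher and 9 that were lower. A further 10 of the higher probe sets name several genes, and 4 higher and 1 lower name none. The smallest adjusted p of all probe sets fell to 1 without a gene name, higher by 1.35 ± 0.16 (limma adjusted p = 1.57e-05). With each gene counted once, by its brightest probe set over the series (its main probe set), 29 of 8251 genes were higher (0.351%) and 3 lower (0.0364%). At an unadjusted p under 0.05, the numbers were 786 higher and 809 lower, and over all probe sets the median difference was -0.01. All 3 old arrays lay above all 3 young arrays in 1110 probe sets (8.94%) and below in 1221 (9.83%). With the sham arrays left out of the shared estimate of the spread 21 passed, and in a fit of the 6 arrays alone 20. Without old replicate 1, 10 probe sets passed, and without old replicate 2, 87 passed.

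**Figure D1:**
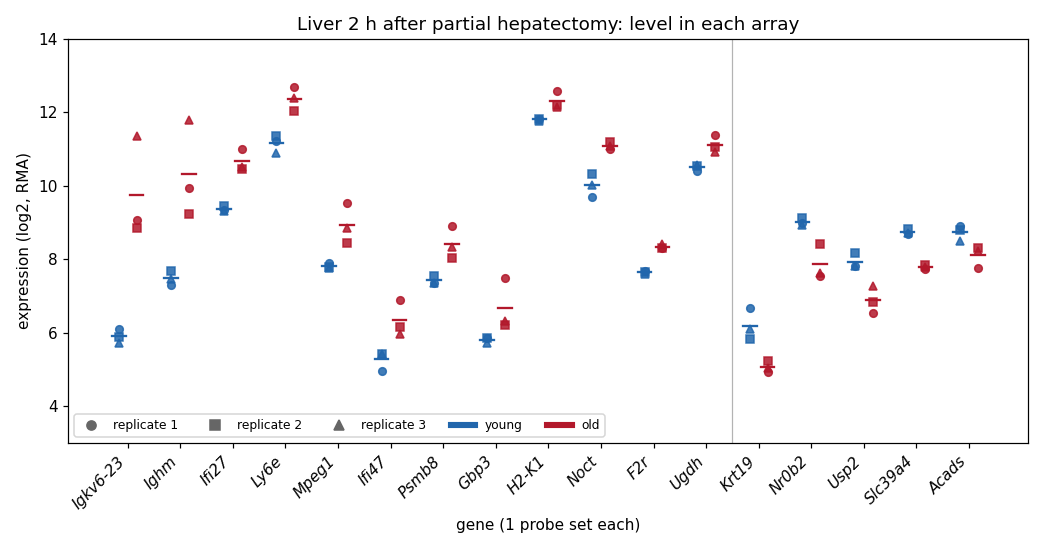
Log2 RMA expression (vertical axis) of 17 genes in each array at 2 h after PH, young in blue and old in red, with the symbol shape giving the replicate number and the bar the group mean of 3 arrays. Each gene is drawn by a probe set that passed. Left of the grey line lie 12 genes higher in old and right of it 5 lower, and in each of the 17 the arrays of the 2 ages do not overlap.

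Ifi27, an interferon-inducible gene of mitochondria and the nuclear envelope, was higher in old livers. Its levels were 11.02, 10.46 and 10.52 in old livers and 9.34, 9.45 and 9.32 in young livers (log2), with no overlap. The difference was 1.30 ± 0.19 (SE, n = 3 and 3, adjusted p = 0.000287), or 2.46-fold. It kept its call in all 16 alternative fits, with differences of 1.13 to 1.40 in those that left out 1 array.

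Of the 26 measured interferon-induced genes, 4 were higher in old and 0 lower (0.351% and 0.0364% of all genes were). In 14 all 3 old arrays lay above all 3 young arrays (53.8%, against 9.09% of all genes). The median difference of the list was 0.39, against -0.01 over all genes. Psmb8, the immunoproteasome subunit, stood at 8.92, 8.04 and 8.32 in old and 7.36, 7.56 and 7.37 in young livers, a difference of 1.00 ± 0.24 (adjusted p = 0.0466). All 3 old values lay above the young ones, with old replicate 1 the highest. Ifi47, an interferon-inducible GTPase, stood at 6.89, 6.15 and 5.98 in old and 4.97, 5.43 and 5.43 in young (1.06 ± 0.25, adjusted p = 0.0462). Gbp3, a guanylate-binding protein of the same defence system, stood at 7.48, 6.23 and 6.31 against 5.86, 5.87 and 5.72 (0.86 ± 0.20, adjusted p = 0.0466). In Gbp3 old replicate 1 exceeded the other old arrays by more than these exceeded the young.

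Other members with high differences did not pass. Irgm1, an immunity-related GTPase, had 7.68, 5.80 and 5.97 in old against 5.56, 5.52 and 5.40 in young livers (0.99 ± 0.26, adjusted p = 0.079). Igtp, of the same family, had 8.41, 6.34 and 7.02 against 6.29, 6.30 and 6.42 (0.92 ± 0.31, adjusted p = 0.192). In both genes old replicate 1 stood far above the rest, and the ages overlapped in Igtp. Irf9, the DNA-binding part of the type I interferon transcription complex, differed by 0.47 ± 0.13 (adjusted p = 0.105), Gbp2 by 0.59 ± 0.19 (0.19) and Ifit1, an inhibitor of viral RNA translation, by 0.51 ± 0.18 (0.233). The antiviral genes Mx1 and Mx2 differed by 0.11 and 0.04, and Irf8 and Ifit2 by -0.01 and 0.00.

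Old replicate 1 had the highest of the 6 values in 21 of the 26 genes, and in 1786 of all 8251 genes. Without it the median difference of the list fell to 0.23 and 1 member passed; without old replicate 2 the median was 0.58 and 8 passed. With any single young array left out 1 member passed, and 4 passed without old replicate 3. Of the 4 called members, Ifi27 kept its call in all 6 fits that left out 1 array, Ifi47 and Gbp3 in 2 (those without old replicate 2 or 3) and Psmb8 in 1 (that without old replicate 2).

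**Figure D2:**
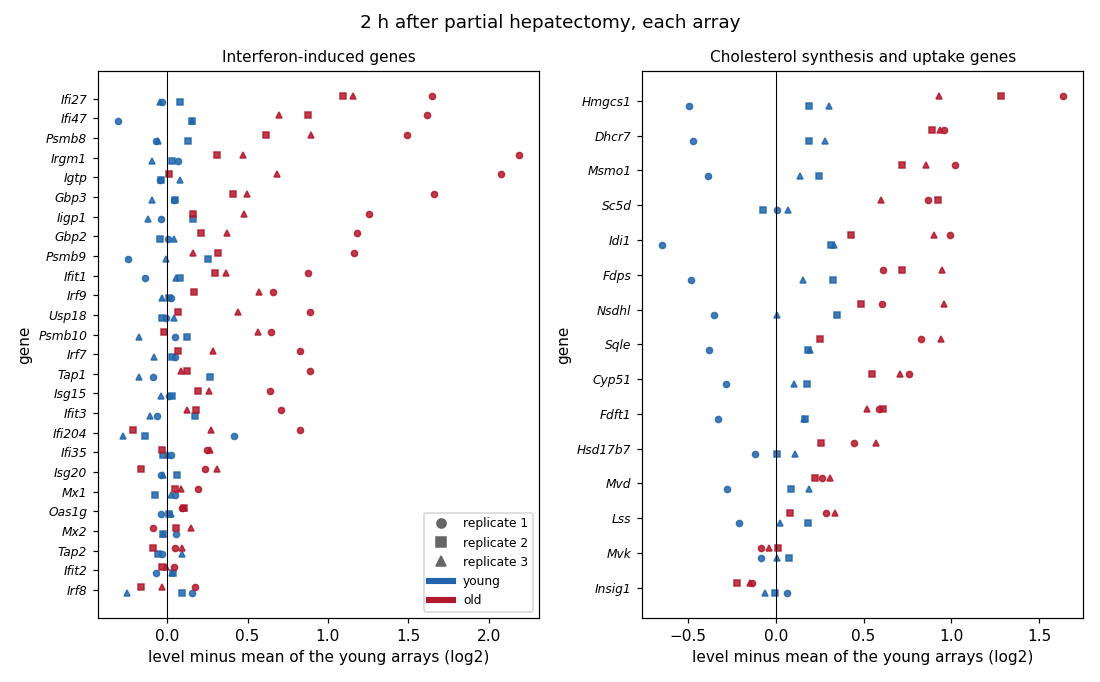
Level in each array at 2 h after PH minus the mean of the 3 young arrays (log2, horizontal axis) for the interferon-induced genes (left) and the cholesterol genes (right), young in blue, old in red, the symbol shape giving the replicate. Old replicate 1 is the highest value in 21 of 26 interferon-induced genes, and young replicate 1 the lowest in 12 of 15 cholesterol genes (1786 and 999 of all 8251 genes).

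Ly6e, Ifih1 and Nmi, which belong to no list compared here, were singled out after they had passed. Ly6e, a membrane protein that restricts virus entry, had 12.69, 12.03 and 12.40 in old and 11.22, 11.35 and 10.90 in young livers, a difference of 1.22 ± 0.22 (adjusted p = 0.00382) with no overlap. Its second probe set went the other way without passing (-0.46 ± 0.16, adjusted p = 0.23), and both carry a suffix for less specific probes. Ifih1, the cytoplasmic sensor of double-stranded RNA known as MDA5, was higher by 0.59 ± 0.13 (adjusted p = 0.0302), and Nmi, which binds STAT proteins, by 0.63 ± 0.13 (adjusted p = 0.0256). Ly6e lost its call without old replicate 1 or young replicate 3. Ifih1 lost it without old replicate 1 or any single young array, and Nmi without any single array other than old replicate 2.

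Of 10 measured MHC class I and peptide-loading genes, 1 was higher by its main probe set (0.351% of all genes were). In 6 all old arrays lay above the young (60.0%, against 9.09%), and the median difference was 0.32. H2-K1, a classical class I heavy chain, had 12.58, 12.20 and 12.15 in old and 11.83, 11.81 and 11.78 in young livers, higher by 0.50 ± 0.10 (adjusted p = 0.0094). Old replicates 2 and 3 stood close together above the narrow young range, and old replicate 1 stood higher still. H2-D1, the second classical heavy chain, was higher by 1 of its probe sets (0.62 ± 0.13, adjusted p = 0.0282) and just missed the threshold by its main one (0.43 ± 0.10, adjusted p = 0.0503). The light chain B2m differed by 0.37 ± 0.12 (adjusted p = 0.167). The peptide transporter genes Tap1 and Tap2 differed by 0.37 and 0.02 and did not pass.

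Class I genes are near-identical copies, and probe sets for one can read another. Over the 24 probe sets that name a gene of this family, 4 were higher and 0 lower (0.378% and 0.0805% of all probe sets), and 17 had all old arrays above the young and 1 all below (8.94% and 9.83% of all probe sets). Those higher include a probe set shared by H2-T9, H2-T22 and H2-T10 and one shared by H2-Q9, H2-Q7 and H2-Q5. A probe set shared by Raet1e and Raet1d, stress ligands of natural killer cells, was also higher, by 1.59. H2-K1 lost its call without old replicate 1 or young replicate 3, H2-D1 without any single array other than old replicate 2 or young replicate 2, and without old replicate 1 the list's median difference was 0.19.

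Mpeg1, a pore-forming protein of macrophages, was higher by 1.12 ± 0.25 (adjusted p = 0.0328). Its levels were 9.54, 8.45 and 8.85 in old and 7.91, 7.79 and 7.77 in young livers, without overlap. It was the 1 of 15 measured Kupffer cell and macrophage markers that passed, where 0.351% of all genes were higher. All old arrays lay above the young in 8 of the markers (53.3%, against 9.09%). Lyz2, the lysozyme of macrophages and neutrophils, had 7.32, 7.23 and 7.22 against 5.87, 6.02 and 5.93 (1.32 ± 0.41, adjusted p = 0.167). Its 3 old arrays lay close together, far above the young, but its standard error, which draws on the spread in all 18 groups, was wide. The lysosomal protease Ctss differed by 1.28 ± 0.34 (adjusted p = 0.081). The macrophage markers Adgre1 and Csf1r differed by 0.28 and 0.39, the Kupffer cell marker Clec4f by 0.41, and Marco and Fcgr1 by 0.07 and 0.01.

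The mean level of the 15 macrophage markers by array was 7.96, 7.38 and 7.28 in old and 6.95, 7.04 and 6.87 in young livers (log2), with no overlap. Old replicate 1, also the highest in most interferon-induced genes, had the highest value in all 15 (in 1786 of all 8251 genes). Without old replicate 1 the median difference of the markers was 0.22 in place of 0.42 and 0 passed; without old replicate 2 it was 0.51 and 2 passed. Among the fits that left out 1 array Mpeg1 kept its call only in that without old replicate 2. What part these cells have in the interferon and MHC values was not tested.

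No MHC class II gene passed, of 11 measured, and 5 had all old arrays above the young (45.5%, against 9.09% of all genes). The invariant chain Cd74 had 10.31, 9.34 and 9.91 in old and 8.94, 9.07 and 8.29 in young livers (1.08 ± 0.34, adjusted p = 0.167). H2-Eb1 differed by 0.51 ± 0.14 (adjusted p = 0.0886) and H2-Aa by 0.71 ± 0.25 (0.22). At an unadjusted p under 0.05, 6 of the 11 were higher and 0 lower, against 537 and 558 of all 8251 genes. Laptm5, a lysosomal protein of blood cells, was higher by 1 of its probe sets (0.44 ± 0.11, adjusted p = 0.0491), as were the leukocyte adaptors Apbb1ip (0.90 ± 0.20, adjusted p = 0.0302) and Cytip (0.73 ± 0.17, adjusted p = 0.0466). Cytip has a second probe set that gave 0.25 without passing. Without old replicate 1 none of these 3 passed.

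Immunoglobulin genes showed the highest differences among those that passed. Igkv6-23, a kappa light chain variable gene, had 9.08, 8.84 and 11.35 in old and 6.11, 5.88 and 5.71 in young livers, higher by 3.86 ± 0.77 (adjusted p = 0.0138), or 14.5-fold. Ighm, the IgM heavy chain, had 9.94, 9.23 and 11.80 against 7.29, 7.68 and 7.47, higher by 2.84 ± 0.62 (adjusted p = 0.0302). In both genes old replicate 3 was the highest and all old arrays lay above the young. The Ighm value comes from 1 of its 16 probe sets, and the others, with differences of -0.15 to 1.38, did not pass. A probe set shared by several kappa genes, Igkc among them, was higher by 4.05.

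The immunoglobulin family was taken as the 79 probe sets naming a gene whose symbol begins with Igh, Igk or Igl. These letters open the symbols of heavy, kappa and lambda chain genes, and other genes whose symbols begin so were not left out. Of the 79, 3 were higher, 0 lower and 63 had a positive difference. All old arrays lay above the young in 32 and below in 2, against 8.94% and 9.83% of all probe sets. Of the 17 measured B and plasma cell markers, 1 (Ighm) was higher (0.351% of all genes were). Their median was 0.16, and without young replicate 1 this median was 0.10. Jchain, which joins IgM and IgA, had 5.67, 5.36 and 7.78 against 4.33, 4.43 and 4.68 (1.79 ± 0.58, adjusted p = 0.19). Pou2af1, a B cell coactivator, differed by 0.63 ± 0.20 (0.167). The B cell surface markers Ms4a1, Cd79a, Cd79b and Cd22 differed by 0.16, 0.04, 0.20 and -0.02. Igkv6-23 lost its call without old replicate 3, young replicate 2 or young replicate 3, and Ighm without any single array other than old replicate 2. Their differences in these fits were 3.06 to 4.31 and 2.10 to 3.39.

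Of 20 T and NK cell markers 0 passed, with a median of -0.08, and the chemokine Ccl5, which these cells make, differed by 0.53 ± 0.15 (adjusted p = 0.115). Of 18 neutrophil markers 0 passed, with a median of 0.01. All old arrays lay above the young in 5 (27.8%, against 9.09% of all genes) and below in 1 (5.6%, against 10.1%). The granule genes Elane, Camp and Ltf differed by -0.07, -0.06 and 0.01, and the cytosolic pair S100a8 and S100a9 by 0.94 and 0.76. Lcn2, also on this list, had its largest difference (2.67, limma adjusted p = 0.331).

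Noct, a rhythmic phosphatase of nicotinamide cofactors also known as nocturnin, was higher in old by 1.08 ± 0.20 (adjusted p = 0.00792). Its levels were 10.99, 11.19 and 11.09 in old and 9.69, 10.31 and 10.03 in young livers, without overlap and with the old arrays close together. A second Noct probe set was higher by 1.15 ± 0.22 (adjusted p = 0.00792), and the last gave 0.54 ± 0.20 (adjusted p = 0.239). Sgip1, an endocytic adaptor, was higher by 1.21 ± 0.29 (adjusted p = 0.0469), with 7.58, 6.46 and 6.70 against 5.26, 5.83 and 6.02. In all, 9 probe sets name Noct or Sgip1, 5 of them both, and 8 passed, all higher. All but the Noct probe set given first carry a suffix for cross-hybridising probes, so the share of each gene cannot be told apart in them. Noct kept its call in 15 of 16 alternative fits and lost it without young replicate 1, and Sgip1 kept it only without old replicate 2 among the fits that left out 1 array.

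F2r, the thrombin receptor PAR1, was measured by 3 probe sets. By 1 of them it stood at 8.31, 8.30 and 8.41 in old and 7.68, 7.65 and 7.60 in young livers, higher by 0.70 ± 0.10 (adjusted p = 0.000125). It kept this call in all 15 alternative fits in which that probe set was tested. The other probe sets disagreed: that with the highest mean over the series gave 0.03 (adjusted p = 0.931) and the third 0.32 (adjusted p = 0.479).

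Ugdh, which makes UDP-glucuronate for glucuronidation, had 11.37, 11.05 and 10.93 in old and 10.41, 10.54 and 10.58 in young livers, higher by 0.61 ± 0.14 (adjusted p = 0.0391). Rhoq, a small GTPase linked to insulin-stimulated glucose uptake, was higher by 0.88 ± 0.20 (adjusted p = 0.0323), and Gnai1, an inhibitory G protein subunit, by 0.61 ± 0.14 (adjusted p = 0.0466). The mRNA 3′ end processing factors Cstf2t and Cstf3 were higher by 0.68 ± 0.15 and 0.42 ± 0.10, the splicing factor Smndc1 by 0.58 ± 0.14 and the RNA helicase Ddx52, which acts in ribosome assembly, by 0.39 ± 0.09. Pola1, the catalytic subunit of DNA polymerase alpha, was higher by 0.53 ± 0.11 (adjusted p = 0.0215) and Rnf138, a ubiquitin ligase, by 0.54 ± 0.12. The remaining higher genes were D10Wsu102e (1.00), Mdfic (0.64), Bzw2 (0.44), Ms4a4d (0.41) and the protease inhibitor Slpi (0.31). Further probe sets of Gnai1 and Slpi did not pass (0.09 for Gnai1). In D10Wsu102e the old arrays were far apart, at 7.61, 5.94 and 6.95 against 5.90, 5.78 and 5.82 in young livers. None of the genes of this paragraph passed without old replicate 1.

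Krt19, a keratin of bile duct and progenitor cells, had the smallest adjusted p among the genes that were lower in old. Its levels were 4.94, 5.24 and 5.03 in old and 6.66, 5.83 and 6.10 in young livers, without overlap. It was lower by 1.13 on the log2 scale (-1.13 ± 0.15, adjusted p = 6.71e-05). A second probe set gave -0.39 ± 0.14 (adjusted p = 0.234), also with all old arrays below the young. Krt19 kept its call in each of the 6 fits that left out 1 array, with differences of -1.31 to -0.89, and lost it in the fit of the 6 arrays alone. Of the 9 measured bile duct cell markers it was the 1 that passed (0.0364% of all genes were lower), and the median of the list was -0.04. Krt7, Epcam and Cftr, further markers of these cells, differed by -0.04, 0.15 and 0.05. In 3 of the 9 markers (Krt19, Cldn4 and Cldn7) all old arrays lay below the young (33.3%, against 10.1% of all genes), and in 0 all above. Cldn4 and Cldn7 differed by -0.23 and -0.24 and Onecut1 by -0.35, without passing.

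Nr0b2, the small heterodimer partner that represses bile acid synthesis, had 7.56, 8.41 and 7.62 in old livers and 8.94 to 9.11 in the 3 young livers. It was lower by 1.15 on the log2 scale (-1.15 ± 0.25, adjusted p = 0.0302). The young arrays were close together and all 3 old arrays lay below them. It was the 1 of 13 bile acid genes that passed, where 0.0364% of all genes were lower. Cyp7a1, which Nr0b2 represses and which opens the classical route of bile acid synthesis, differed by -0.38 ± 0.44 (adjusted p = 0.766). Nr0b2 lost its call without any single array other than old replicate 2.

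Usp2, a deubiquitinase with a strong daily rhythm in liver, was lower by 1 of its probe sets and just missed the threshold by the other. The first gave 6.53, 6.85 and 7.27 in old against 7.82, 8.17 and 7.81 in young livers (-1.05 ± 0.19, adjusted p = 0.00543), and the second -1.03 ± 0.26 (adjusted p = 0.0604). In both the old arrays all lay below the young. The first lost its call without old replicate 1 or young replicate 2. Of the 18 circadian clock genes 0 passed by their main probe set, with a median of -0.09. Dbp, an output factor of the clock, differed by -0.93 ± 0.46 (adjusted p = 0.388), the repressors Cry1 and Per2 by -0.68 and -0.37, and the clock's core activators Clock and Arntl by -0.00 and -0.08.

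The other 6 genes that were lower passed by 1 probe set each. Slc39a4, a zinc importer, had 7.75, 7.85 and 7.79 against 8.69, 8.83 and 8.71 (-0.95 ± 0.23, adjusted p = 0.0494), with narrow and well separated groups. A second, brighter probe set for it gave 0.14 ± 0.08 (adjusted p = 0.455). Acads, the short-chain acyl-CoA dehydrogenase of fatty acid oxidation, was lower by 0.64 on the log2 scale (-0.64 ± 0.14, adjusted p = 0.0302), and its brighter probe set gave -0.11. Cdip1, a mediator of cell death, gave -0.88 (main probe set -0.42, adjusted p = 0.068). Pabpc4, a poly(A)-binding protein, gave -0.50 (main 0.05) and Pex14, of peroxisomal import, -0.40 (main 0.03). Pam16, of mitochondrial protein import, gave -0.33. Slc39a4 and Pex14 lost their calls in all 6 fits that left out 1 array, Acads in those without old replicate 1, young replicate 1 or young replicate 2, and Cdip1, Pabpc4 and Pam16 without old replicate 1 among others.

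Further genes with all old arrays below the young missed the threshold. Tinagl1, a matrix glycoprotein, differed by -0.51 ± 0.12 (adjusted p = 0.0503), Nefh, a neurofilament, by -0.40 ± 0.10 (0.0545) and Nr4a2, an orphan nuclear receptor induced early after stimulation, by -0.38 ± 0.10 (0.0663). Hhex, a homeobox factor of liver development, had 5.98, 6.35 and 5.81 in old and 7.45, 7.37 and 6.77 in young livers (-1.15 ± 0.31, adjusted p = 0.0874).

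In 31 of the 39 gene lists 0 members passed by their main probe set. Among these were the cholesterol synthesis and uptake genes, of which 12 of 15 had all old arrays above the young (80.0%, against 9.09% of all genes) and 1 all below, with a median of 0.67. At an unadjusted p under 0.05, 10 were higher and 0 lower by limma (537 and 558 of all 8251 genes), and 0 passed the adjustment. Hmgcs1, which feeds the pathway upstream of its rate-limiting reductase, had 9.84, 9.48 and 9.13 in old against 7.71, 8.39 and 8.50 in young livers (1.28 ± 0.36, adjusted p = 0.105). The ages did not overlap, and young replicate 1 was the lowest. Dhcr7, of the last step, differed by 0.93 ± 0.37 (adjusted p = 0.294), Msmo1 by 0.86 ± 0.28 (0.176), Cyp51 by 0.67 ± 0.22 (0.19) and Sqle, squalene epoxidase, by 0.67 ± 0.32 (0.377). Insig1, which holds the pathway's activator back, differed by -0.17 ± 0.11 (0.552). Young replicate 1 was the lowest of the 6 arrays in 12 of the 15 genes (999 of all 8251 genes), and without it the median was 0.48.

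**Figure D3:**
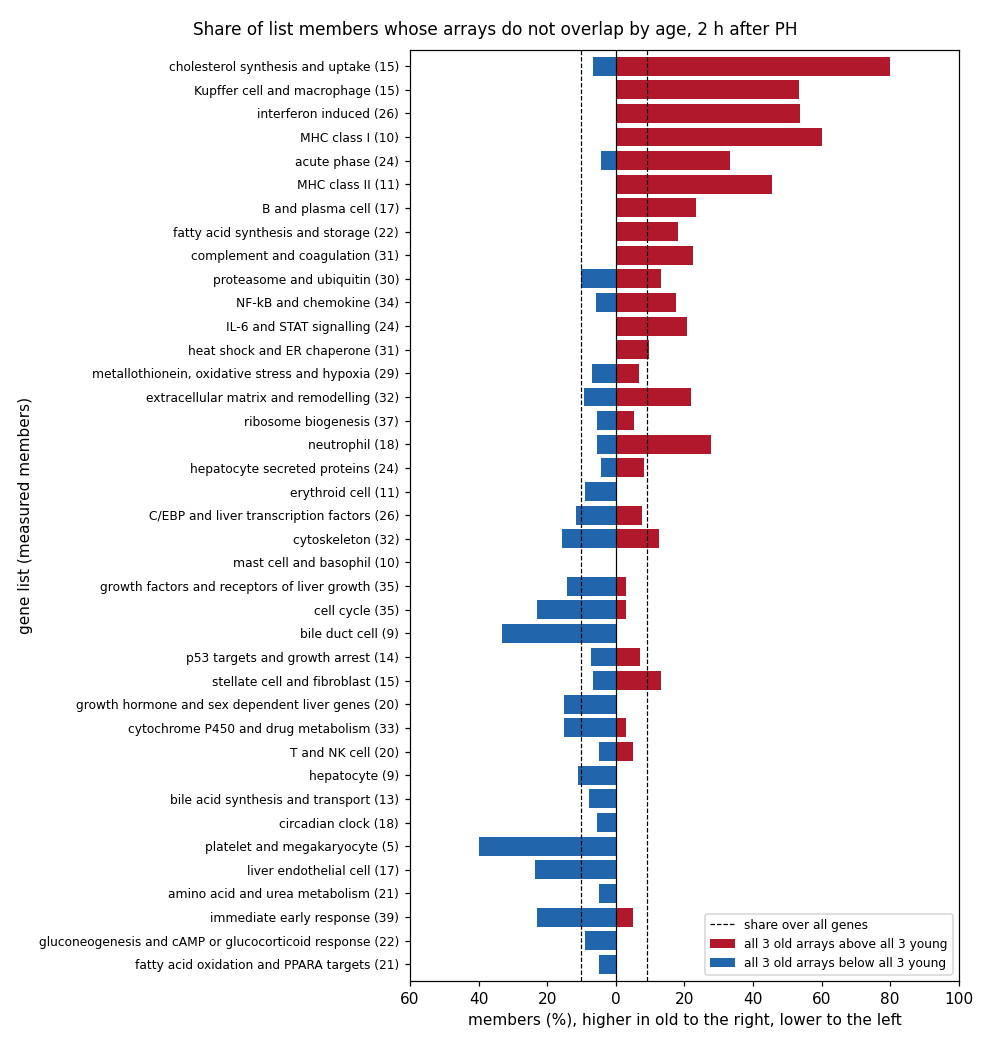
Share of each list's measured members (percent, horizontal axis) whose 3 old arrays all lie above the 3 young arrays (red, to the right) or all below them (blue, to the left), for the 39 gene lists with their number of measured members, and dashed lines for all genes (9.1% above, 10.1% below). The lists are sorted by their median old minus young difference at 2 h after PH, from the cholesterol genes at the top (0.67), the macrophage markers (0.42), the interferon-induced genes (0.39) and the MHC class I genes (0.32) down.

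Of 24 measured acute phase genes, which hepatocytes switch on in inflammation, 0 passed, 7 were higher and 1 lower at an unadjusted p under 0.05 (537 and 558 of all 8251 genes), 8 had all old arrays above the young (33.3%, against 9.09%) and the median was 0.25. Lcn2, an iron-scavenging protein, had 10.48, 7.49 and 10.51 in old and 6.95, 6.29 and 7.24 in young livers (2.67 ± 1.16, adjusted p = 0.331). Orm2, an orosomucoid, had 11.75, 9.17 and 10.89 against 8.21, 8.48 and 8.46 (2.22 ± 0.99, adjusted p = 0.347). In both, old replicate 2 lay nearest to the young arrays, and the standard errors, which draw on the spread in all 18 groups, were wide. Saa4 differed by -0.72 and the hormone gene Hamp by -0.63. The list's median was 0.16 without old replicate 1 and 0.41 without old replicate 2.

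Of 39 immediate early genes 0 passed. At an unadjusted p under 0.05, 2 were higher and 7 lower by limma (537 and 558 of all 8251 genes). All old arrays lay below the young in 9 (23.1%, against 10.1% of all genes) and above in 2 (5.1%, against 9.09%), with a median of -0.14. Fos, of the AP-1 transcription factor, had 7.16, 7.47 and 6.77 in old against 8.84, 8.38 and 7.48 in young livers (-1.10 ± 0.92, adjusted p = 0.653). Nr4a1, an orphan nuclear receptor, had a mean of 7.48 ± 0.46 (SD, n = 3) against 8.56 ± 0.76 (-1.08 ± 0.37, adjusted p = 0.215). The Fos values did not overlap, those of Nr4a1 did, and both errors were wide. A second, dimmer probe set of Fos gave 0.05. Egr1 differed by -0.61 ± 0.57 (0.41 by a dimmer probe set) and Jun by -0.26 ± 0.22. The highest array was young replicate 1 in 22 of the 39 genes (1135 of all 8251 genes), and without it the list's median was -0.00. It was -0.07 without old replicate 3 and -0.23 without young replicate 3.

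Of 35 cell cycle genes 0 passed, 8 had all old arrays below the young (22.9%, against 10.1% of all genes) and 1 above (2.9%, against 9.09%), and the median was -0.03. Cdk4 differed by -0.39 ± 0.13, Rrm2 by 0.32 ± 0.14 and cyclin D1 (Ccnd1) by 0.13 ± 0.18. Dimmer probe sets disagreed, with 0.01 for Cdk4 and -0.20 ± 0.08 for Ccnd1 (limma adjusted p = 0.266). In that of Ccnd1 all old arrays lay below the young. Of 21 fatty acid oxidation genes 0 passed. At an unadjusted p under 0.05 by limma, 6 were lower and 1 higher (558 and 537 of all 8251 genes). All old arrays lay below the young in 1 (4.8%, against 10.1% of all genes) and above in 0. The median was -0.19, with -0.69 ± 0.24 for Acot1 and -0.49 ± 0.15 for Eci1. Old replicate 1 was the lowest array in 14 of these 21 genes (1769 of all 8251 genes), and without it the median was -0.05. The median was -0.08 without young replicate 1 and -0.30 without old replicate 2 or young replicate 3. Lists for IL-6 and STAT signalling, NF-kB and chemokines, heat shock, p53 targets, drug metabolism, amino acid metabolism, matrix and cytoskeleton had 0 members past the threshold and medians from -0.12 (amino acid and urea metabolism) to 0.07 (IL-6 and STAT signalling). In this order, all old arrays lay above the young in 20.8%, 17.6%, 9.7%, 7.1%, 3.0%, 0.0%, 21.9% and 12.5% of members (9.09% of all genes). They lay below in 0.0%, 5.9%, 0.0%, 7.1%, 15.2%, 4.8%, 9.4% and 15.6% (10.1% of all genes). Ddx52, given above, was the 1 of 37 ribosome biogenesis genes that passed, where 0.351% of all genes were higher.

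Whether the age difference at 2 h after PH differed from the age difference in unoperated liver, after sham surgery or at the other times after PH was tested for every probe set. The sham arrays lay apart from the rest: on the first principal component of the 46 arrays the 16 sham arrays, taken at all times, scored 7.75 to 30.26 and the other 30 -34.13 to 6.27. In each of the 3 tests 0 of 12422 probe sets passed (0.0%, limma). At an unadjusted p under 0.05, 522 probe sets were higher and 130 lower against 0 h, 255 and 239 against 2 h sham, and 346 and 347 against the mean of 0.5, 1 and 4 h PH. The smallest adjusted p values were 0.0734, 0.116 and 0.175. Krt19 gave the values against 0 h and against the other PH times: its age difference at 2 h PH lay 1.13 lower than at 0 h (-1.13 ± 0.21) and 0.88 lower than at the other PH times (-0.88 ± 0.17). Against sham surgery Apob, the protein of very low density lipoprotein, gave -1.63 ± 0.32 and Usp2, by the probe set that passed between ages, -1.53 ± 0.31 (both adjusted p = 0.116; main probe set of Usp2 -1.69 ± 0.41, 0.676), Apob through a difference of 1.54 after sham and -0.09 after PH. Some calls appeared on leaving out 1 array. Without old replicate 2 at 2 h PH, 4 probe sets passed against 0 h (Gar1, D10Wsu102e, Piga and Krt19), and Krt19 passed in all 3 tests without young replicate 2. Against sham, D10Wsu102e passed without old replicate 2 and Usp2 without old replicate 3. A probe set with no gene name passed against 0 h without old 0 h replicate 1, and one passed against the other PH times without young replicate 1 at 1 h.

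**Figure D4:**
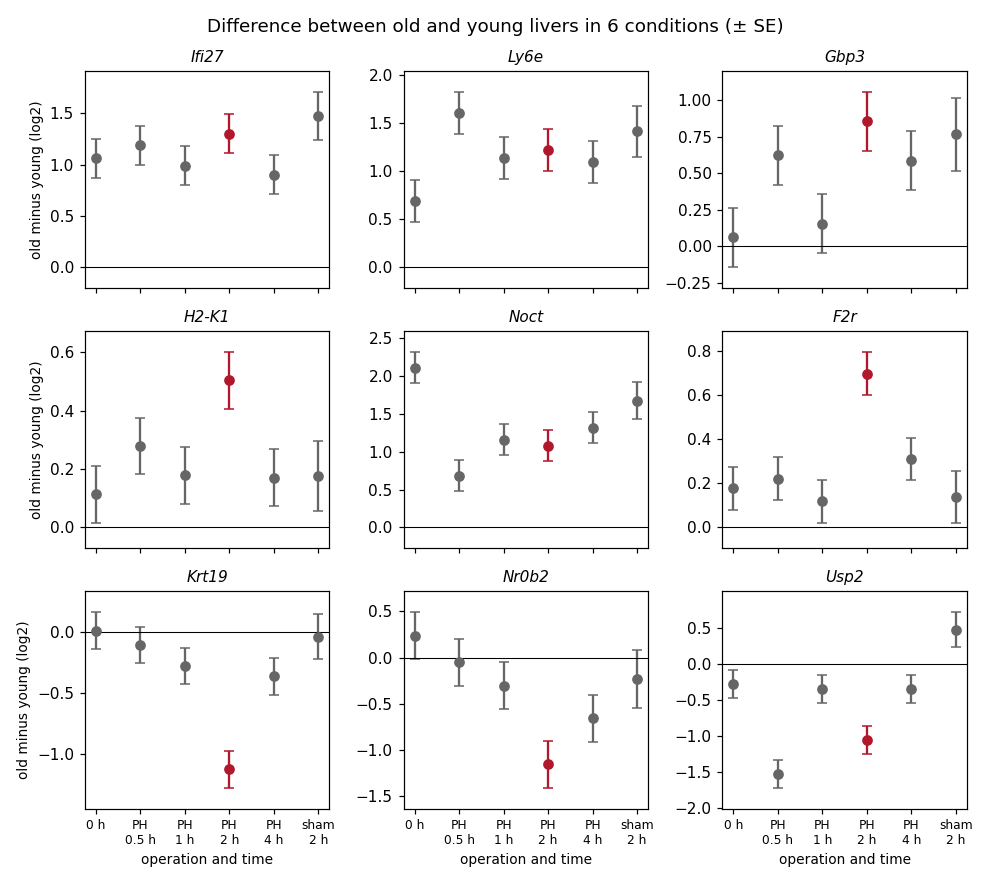
Old minus young difference (log2, points) with its standard error (bars) for 9 genes in 6 conditions: unoperated liver (0 h), 0.5, 1, 2 and 4 h after PH, and 2 h after sham surgery, with F2r and Usp2 by the probe set that passed at 2 h PH. Ifi27 is between 0.90 and 1.48 in every condition, while Krt19 is at -1.13 at 2 h PH and between -0.36 and 0.01 in the other 5.

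Read gene by gene, the age differences fell into several patterns across conditions. Ifi27 was higher in old in all 6 conditions, by 1.06 ± 0.19 at 0 h, 1.19, 0.99 and 0.90 at 0.5, 1 and 4 h PH and 1.48 ± 0.23 after sham, the 1 gene past the threshold in all. Noct differed most at 0 h (2.11 ± 0.20, adjusted p = 8.85e-08) and passed at 1 h PH (1.16), 4 h PH (1.32) and 2 h sham (1.68) as well, with 0.68 at 0.5 h (adjusted p = 0.139). Ly6e passed at 0.5, 1 and 4 h PH and after sham (1.60, 1.14, 1.09 and 1.41) and had 0.69 at 0 h (adjusted p = 0.382). Ugdh gave -0.11 to 0.07 in the other 5 conditions and Krt19 -0.36 to 0.01, none past the threshold. The F2r probe set that passed at 2 h PH gave 0.12 to 0.31 there, its main probe set -0.11 to 0.19 and the remaining one -0.32 to 0.43, none past the threshold.

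Of the 32 genes higher at 2 h PH, 24 passed in none of the other 5 conditions, and of the 9 lower, 6. The higher genes that also passed numbered 2 at 0 h, 5, 4 and 5 at 0.5, 1 and 4 h PH, and 3 after sham. In these conditions 0.145%, 0.314%, 2.03%, 0.217% and 0.0564% of all probe sets passed. Of the 47 higher probe sets, 42 were positive at 0 h, 44, 46 and 46 at 0.5, 1 and 4 h PH and 40 after sham, where 32.7%, 54.2%, 46.1%, 41.8% and 47.7% of all probe sets were positive, with medians of 0.29, 0.47, 0.29, 0.43 and 0.44 against the 0.73 by which they were found. Of the 10 lower probe sets, 6 were negative at 0 h, 9, 8 and 10 at 0.5, 1 and 4 h PH and 8 after sham, where 67.3%, 45.8%, 53.9%, 58.2% and 52.3% of all were negative. The median of the interferon-induced genes was 0.07 at 0 h, 0.41, 0.18 and 0.35 at 0.5, 1 and 4 h PH, and 0.32 after sham; the macrophage markers had 0.18, 0.64, 0.43, 0.44 and -0.08, and the cholesterol genes 0.44, 0.53, 0.44, 0.46 and 0.14. Igkv6-23 differed by 1.96 to 3.57 in the other 5 conditions.

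The change from 0 h to 2 h after PH was computed in each age from its own arrays, and these changes share the 2 h arrays with the age difference. They passed for 650 probe sets in old livers (377 up, 273 down, 5.23%) and for 496 in young livers (218 up, 278 down, 3.99%). Krt19 rose by 1.24 ± 0.15 in young livers (limma adjusted p = 1e-06) and changed by 0.11 ± 0.15 in old livers (0.772). Usp2 rose in young livers by both probe sets and passed in old livers by neither: its main one gave 0.97 ± 0.26 in young (0.0237) and 0.50 ± 0.26 in old (0.289), and the one that passed between ages 1.06 ± 0.19 (0.000555) and 0.29 ± 0.19 (0.454). Ugdh rose by 0.55 ± 0.14 in old livers (0.0148) and had -0.06 in young. F2r, by the probe set that passed between ages, rose by 0.42 ± 0.10 in old livers (0.00675) and had -0.10 in young, but its main probe set changed by -0.04 in old (0.897) and the remaining one by -0.00 (0.997). Noct rose in both, by 0.68 ± 0.20 in old (0.0451) and 1.71 ± 0.20 in young livers (9.41e-07). Nr0b2 had -0.77 ± 0.25 in old (0.073) and 0.62 ± 0.25 in young (0.18). By the probe sets that passed between ages, 9 of the 32 genes higher in old rose from 0 h in old livers and 0 fell. In young livers 2 of them rose and 3 fell, and of the 9 lower genes 2 rose. These genes were picked by the same 2 h arrays, which favours such counts, so the counts are no separate evidence.

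A set of 31 genes known from liver regeneration and liver stress was also compared. Of the 31, 0 passed between ages at 2 h PH (limma), the lowest adjusted p was 0.0874 (Hhex), and 22 differed by less than 0.5. From 0 h to 2 h PH, 19 passed in old livers and 22 in young livers, 18 of them in both. The metal-binding Mt1 rose by 5.03 ± 0.84 in old and 4.59 ± 0.84 in young livers and differed between ages by 0.11 ± 0.84. Igfbp1, the insulin-like growth factor binding protein that liver secretes after PH, rose by 3.99 and 4.21, Rcan1, a calcineurin regulator, by 3.42 and 3.01, and Atf3 by 3.12 and 3.87. Myc rose by 1.81 and 1.28, Cebpb by 1.47 and 1.46 and the feedback inhibitor Socs3 by 1.39 and 1.28. Foxa2, a hepatocyte transcription factor, fell by 1.11 and 1.55, and Hhex by 2.62 and 1.36. The age differences of these genes at 2 h were -0.05 for Igfbp1, 0.08 for Rcan1, -0.76 for Atf3, 0.13 for Myc, -0.18 for Cebpb, 0.47 for Socs3 and 0.03 for Foxa2, with errors of 0.16 to 0.57. A p that misses the threshold does not show that the ages were alike, and for genes with wide errors such as Mt1 (0.84) and Lcn2 (1.16) sizeable differences could go uncalled. The sign of the Igfbp1, Myc and Ccnd1 differences turned on leaving out 1 array.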

How the data were processed

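Total liver RNA was prepared with an RNeasy column kit, labelled as biotin cRNA and hybridised to Affymetrix Murine Genome U74 version 2 arrays, per the labels' protocols. The deposited values are log2 expression per probe set; the submitters' processing notes name RMA, which corrects background, quantile-normalizes the arrays and summarises probes, with no version given. These steps force all arrays to 1 distribution, so a global shift cannot be seen. Of 12488 probe sets, 66 controls were left out and 12422 tested: 10833 name 1 gene in GEO's platform annotation, 396 several and 1193 none. A gene is given by its probe set with the highest mean over the 46 arrays unless stated.

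The values were fitted with limma 3.58.1 (R 4.3.3) as 1 mean for each of the 18 groups over 46 arrays (28 residual and 5.09 prior degrees of freedom), and p-values were Benjamini-Hochberg adjusted over all 12422 probe sets (threshold 0.05). The errors printed with ± are standard errors of that fit. The analysis was tested on simulated data. The comparison, its gene lists and the rule for named genes were chosen with earlier results of these data known. The rule takes the 12 genes with the highest and the 12 with the lowest differences past the threshold (filled up by p where fewer passed), up to 4 passing members of each list or else the 2 with the largest difference, the 10 genes with the smallest adjusted p in each test between age differences, and 31 fixed genes. Other list members, and the remaining genes that passed, were named after their values were seen. Alternatives were other centring, filters, variance models, sample sets, array weights, a spike-in covariate, a replicate block and leaving out each array. Replicate numbers did not pair the arrays: the deviations of same-numbered old and young arrays correlated at -0.188, 0.0284 and -0.235. Promoters are from RefSeq (GRCm38.p6).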

Additional observations from a re-analysis of the deposited data

How the results depend on the processing

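Of 12422 probe sets, 57 passed for the age difference at 2 h PH. The count was 20 in a fit of the 6 arrays alone (9 of them shared with the 57), 21 with sham arrays left out (19 shared), 22 with cross-hybridisation suffixes left out, 32 with 1 probe set per gene and 88 with array weights (49 shared). Leaving out 1 array gave 10 to 87: 10 without old replicate 1, 87 without old replicate 2, 33 without old replicate 3, and 20, 22 and 16 without young replicates 1, 2 and 3. With the replicate number as a block, 48 passed (46 shared), and no pairing is given by the labels. Of the 41 named genes that passed, 41 kept their sign in every fit run, 3 kept their call in all 6 fits that left out 1 array (Ifi27, F2r and Krt19), and 2 in all fits in which they were tested (Ifi27 and F2r).

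Against 0 h, where 0 passed, 1 passed with median centring (Krt19), 1 in the fit of the compared groups alone (Orm3) and 1 with 1 probe set per gene (Krt19); leaving out 1 array gave 0 to 4. Against sham surgery 1 passed in the fit of the compared groups alone (Apob), and leaving out 1 array gave 0 to 1. Against the other PH times leaving out 1 array gave 0 to 1. Under the replicate block 0 passed in each of these 3 tests. The Igfbp1 difference was 0.05 with array weights and -0.22 to 0.10 on leaving out 1 array, that of Myc -0.15 to 0.64 and that of Ccnd1 -0.03 to 0.29. The spike-in difference was -0.65 to -0.15 on leaving out 1 array, an alternative chosen after seeing the data, as were the list medians without 1 array. The cause of these changes was not tested. Dim probe sets, near the background, limit what could be called, as does the number of arrays.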
